A study of Mus musculus with 24 samples.

Results

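A set of 9 miRNAs that are regulated by neuronal activity or tied to seizures were followed in exosome-enriched fractions (EEFs) of mouse hippocampus after status epilepticus. These were 9 of the 1073 miRNAs listed in the count tables, taken by name (mmu-mir-132-3p, mmu-mir-132-5p, mmu-mir-212-3p, mmu-mir-212-5p, mmu-mir-134-5p, mmu-mir-138-5p, mmu-mir-129-5p, mmu-mir-324-5p and mmu-mir-184-3p, written miR-132-3p and so on from here). Small RNA was sequenced in 24 libraries of 8 groups, 3 libraries a group. Male C57BL/6 mice (C57BL/6OlaHsd in the study's methods) of 6 to 9 weeks received 0.3 µg kainic acid (KA) in 0.2 µl, which triggers status epilepticus, or PBS as control. The injection was made on 1 side, through a cannula into the right basolateral amygdala. Midazolam (8 mg/kg) was given after 40 min to curtail the seizures, and hippocampi were collected after 24 h or 2 weeks, following perfusion with PBS to wash out blood. EEFs were prepared by ultracentrifugation (UC, 12 libraries, 5 hippocampi pooled in each) or with a precipitation solution (kit, 12 libraries, 4 hippocampi pooled in each). A library is therefore a pool over mice and not 1 animal. The study does not state the number of mice in a pool or the side of the hippocampi pooled. An EEF is a vesicle preparation of whole hippocampus, so more vesicles of 1 cell type and more miRNA per vesicle cannot be told apart.

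miRNAs are short RNAs that pair, through a seed at bases 2 to 8, with messenger RNAs and reduce their translation and stability. Some are made or broken down at a rate set by synaptic activity, and several of these act in dendrites on proteins that shape spines and excitability. Most mature miRNA sits in the cell, but a part is packed into vesicles released from neurons and glia, which EEFs enrich without being free of other cell material. Each hairpin can give a mature miRNA from either arm (5p and 3p), and normally 1 arm is kept more than the other.

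The mature sequences show which of the 9 could act on the same sites. All 9 were found in RefSeq (GRCm38.p6) and are given 5′ to 3′ with the seed in capitals. miR-132-3p and miR-212-3p, the CREB-driven pair that promotes dendrite growth, share the seed AACAGUC, and no other listed mature mouse miRNA has it.
miR-132-3p: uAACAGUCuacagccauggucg
miR-212-3p: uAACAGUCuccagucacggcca
The other arms of these hairpins and the other 5 members each have a seed found in no other mature mouse miRNA of the RefSeq table.
miR-132-5p: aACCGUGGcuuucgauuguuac
miR-212-5p: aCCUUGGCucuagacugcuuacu
miR-134-5p: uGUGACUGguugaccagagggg
miR-138-5p: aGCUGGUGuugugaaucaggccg
miR-129-5p: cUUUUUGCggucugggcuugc
miR-324-5p: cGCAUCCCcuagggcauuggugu
miR-184-3p: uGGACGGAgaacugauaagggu
miR-132-3p and miR-212-3p were identical over their first 9 bases and at 17 of 22 positions, with the differences A10C, C14U, U17C, U20C and G22A (miR-132-3p base first, positions counted from 1 at the 5′ end). The 5p arms matched at 9 of 22 positions, so reads of the 4 arms can be told apart.

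The 2 hairpins lie side by side on the plus strand of chromosome 11, mir-212 at chr11:75173388-75173478 and mir-132 at chr11:75173682-75173747. Both are within an intron of 1700016P03Rik on the same strand (GENCODE vM21, GRCm38). They are shown whole, with the 5p and then the 3p arm in capitals, because the balance between the arms is 1 of the results.
mir-212: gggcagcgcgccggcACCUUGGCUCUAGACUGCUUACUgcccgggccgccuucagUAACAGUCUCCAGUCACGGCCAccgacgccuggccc
mir-132: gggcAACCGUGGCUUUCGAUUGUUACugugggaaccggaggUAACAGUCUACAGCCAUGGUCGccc
The mir-134 hairpin lies in an exon of the non-coding Mirg at chr12:109734139-109734209, within the large imprinted miRNA cluster. miR-138-5p can come from mir-138-1 (chr9:122682876-122682974) or mir-138-2 (chr8:94324311-94324381), and miR-129-5p from mir-129-1 (chr6:29022619-29022691) or mir-129-2 (chr2:94241364-94241453, minus strand), so their reads cannot be assigned to 1 locus. The mir-324 hairpin overlaps an exon of Dvl2 at chr11:70012043-70012131, and mir-184 (chr9:89802260-89802328, minus strand) overlaps no other annotated gene.

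Total miRNA reads ranged from 85436 to 169639 per UC library and from 154884 to 676726 per kit library, so 1 read was worth 5.89 to 11.7 CPM (counts scaled to 1000000 miRNA reads) for UC and 1.48 to 6.46 CPM for kit libraries. A level of at most 3 reads in a library, 17.7 to 35.1 CPM with UC, is treated as at the floor. The 4 neuronal marker miRNAs (miR-124-3p, miR-9-5p, miR-128-3p and miR-218-5p) were read in every group and summed to 27768 to 39854 CPM per UC library and 40498 to 76580 CPM per kit library. The 3 erythrocyte markers summed to at most 11.3 CPM in UC libraries and 184.01 CPM in kit libraries. The UC library of KA 2 weeks replicate 3 stood apart, with the highest choroid plexus marker sum of the UC libraries (2867 CPM, against 295 to 1076 CPM in the other 11). Replicates of all 8 groups differed by more than counting noise (chi-square per degree of freedom of at least 5.89 over 24 pairs), so none was counted as a repeat.

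All 9 members passed the filter of over 1 CPM in at least 6 libraries with both methods, as did 420 miRNAs in UC and 520 in kit libraries. Together they made up 0.661 to 1.53% of the miRNA reads of a UC library and 0.487 to 1.00% of a kit library. The 3 abundant members carried most of these reads. miR-129-5p, which takes part in the downscaling of synapses, averaged 4967 ± 2404 CPM in UC libraries (SD, n = 12) and 1758 ± 606 CPM in kit libraries. miR-138-5p, which limits spine size, averaged 2813 ± 553 CPM (UC) and 3852 ± 1795 CPM (kit). miR-132-3p averaged 1083 ± 314 CPM (UC) and 1212 ± 346 CPM (kit), and was 70th by mean CPM with each method. The ranges of miR-129-5p and miR-138-5p overlapped within each method. With the kit, every miR-138-5p library (1720.1 to 6758 CPM) was above every miR-132-3p library (684 to 1679.5 CPM).

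The other 6 were read at a lower level. miR-184-3p averaged 221 ± 78.0 CPM (UC) and 100.0 ± 57.6 CPM (kit), and miR-134-5p, a dendritic miRNA that restrains spine growth, averaged 206 ± 71.8 CPM and 102 ± 27.3 CPM. These 2 could not be ranked against each other. miR-212-5p averaged 75.0 ± 31.4 CPM (UC) and 170.5 ± 66.2 CPM (kit). miR-324-5p, which lowers the Kv4.2 potassium channel, had 1 to 9 reads in a UC library and 2 to 17 in a kit library. miR-132-5p and miR-212-3p were at or near the floor with UC, with 0 to 5 and 0 to 4 reads a library, and had 9 to 48 and 6 to 43 reads with the kit. For these 3, a difference between UC groups of less than several fold was not detectable at this depth.

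**Figure D1:**
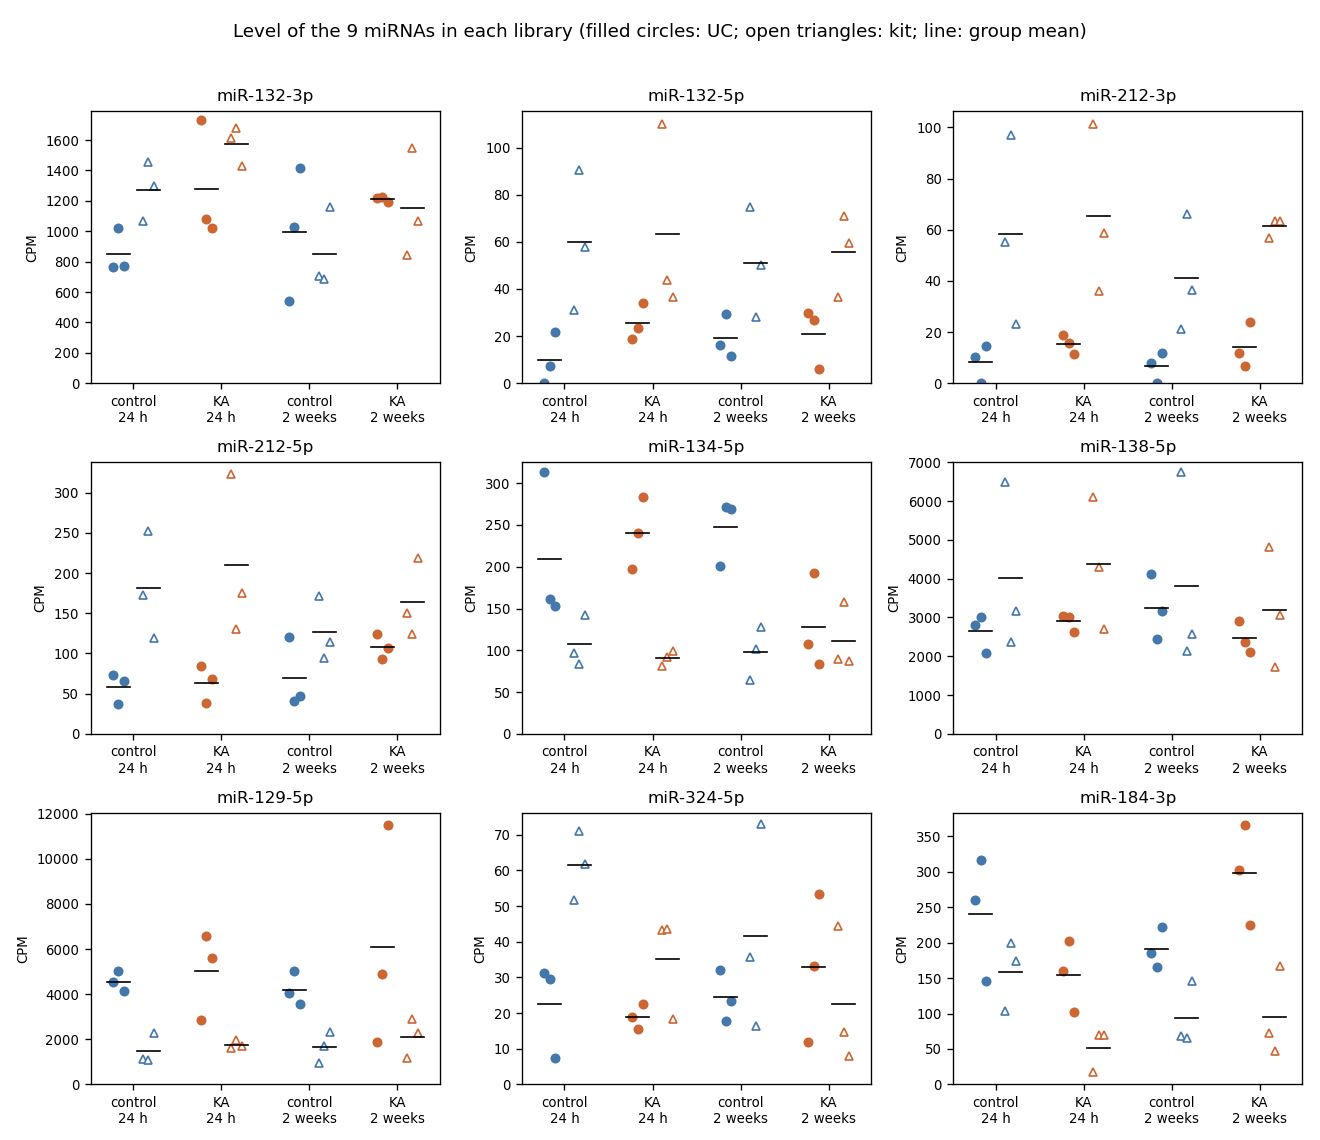
Level of each of the 9 miRNAs in every library, in CPM on a linear axis from 0, by treatment and time. Filled circles are UC libraries, open triangles are kit libraries, blue is control, orange is KA, and a line marks the mean of 3 libraries. For miR-132-3p the KA means are above the control means in all 4 comparisons with overlapping points, and for miR-184-3p at 24 h the 3 kit KA points (17.3 to 69.5 CPM) lie below the 3 kit controls (103 to 200 CPM).

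Whether status epilepticus changed the vesicle content of these miRNAs was asked by comparing KA with control within each method and time, and then over both methods. No member passed the test at an adjusted p under 0.05 (edgeR quasi-likelihood test, Benjamini-Hochberg over all miRNAs tested) in any of the 4 comparisons or in the 2 means over methods. The same test called 0.476% of all miRNAs at 24 h with UC (2 of 420), 0.952% at 2 weeks with UC (4 of 420) and 0 of 520 at either time with the kit. Over the mean of both methods it called 0.756% of 397 at 24 h and 0.504% at 2 weeks. At the unadjusted p under 0.05 that the study used, 0 of 9 members passed at 24 h with UC (2.86% of all tested), 1 of 9 at 2 weeks with UC (7.86%), 1 of 9 at 24 h with the kit (4.62%) and 0 of 9 at 2 weeks with the kit (2.69%). In the means over methods, 2 of 9 passed it at 24 h (5.29%) and 1 of 9 at 2 weeks (6.55%). The ranges of the KA and control groups were apart for 0 of 9 members at 24 h with UC (9.76% of all tested), 2 at 2 weeks with UC (10.2%), 2 at 24 h with the kit (9.04%) and 0 at 2 weeks with the kit (4.81%). DESeq2 and limma-voom likewise called no member at an adjusted p under 0.05 in these 6 comparisons. In simulated counts the edgeR test called 27.6% (UC) and 26.6% (kit) of 2-fold changes at 24 h. A member that was not called may therefore still have changed.

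miR-132-3p, the most studied of the activity-induced miRNAs, had a KA mean above the control mean in all 4 comparisons. With UC at 24 h its level was 762, 1023 and 772 CPM in controls and 1729, 1079 and 1019 CPM after KA. With the kit at 24 h it was 1068, 1453 and 1297 CPM in controls and 1616, 1679.5 and 1427 CPM after KA. The groups overlapped in both methods, by 1 library on each side. With UC at 2 weeks it was 538, 1026 and 1416 CPM in controls and 1218, 1225 and 1193 CPM after KA. With the kit at 2 weeks it was 705, 684 and 1163 CPM in controls and 846, 1546 and 1065 CPM after KA. Here too the groups overlapped, and the UC controls spread wider than the KA libraries.

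The miR-132-3p differences lay close together in the 4 comparisons, and none passed the test. Its log2 difference was 0.50 (SE 0.32) at 24 h and 0.39 (SE 0.31) at 2 weeks with UC, and 0.44 (SE 0.30) and 0.49 (SE 0.31) with the kit. Over both methods KA was 1.37-fold higher at 24 h (log2 0.45, SE 0.22, unadjusted p = 0.0488, edgeR adjusted p = 0.889) and 1.38-fold higher at 2 weeks (log2 0.47, SE 0.22, unadjusted p = 0.0429, edgeR adjusted p = 0.721), which did not pass adjustment. The unadjusted passes were not stable: of 8 other settings, 2 kept p under 0.05 at each time, and of the 12 fits that each left out 1 library, 6 kept it at 24 h and 4 at 2 weeks. The approximate 95% intervals of these means ran from 0.02 to 0.89 and from 0.03 to 0.90. The difference of the KA effect between the methods was -0.07 (SE 0.44, edgeR adjusted p = 0.996) at 24 h and 0.15 (SE 0.44, edgeR adjusted p = 0.996) at 2 weeks. Reference scaling, by the summed reads of miR-92b-3p and miR-25-3p (used as qPCR references in the study), turned the direction to -0.11 at 2 weeks with UC and -0.12 at 24 h with the kit, and it moved the median of all miRNAs in those comparisons to -0.54 and -0.40.

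The seed partner and the 5p arms were read too seldom for a like precision. miR-212-3p had 1, 0 and 2 reads in UC controls and 2, 2 and 1 reads in UC KA libraries at 24 h, so no fold is given there. At 2 weeks with UC it had 1, 0 and 1 reads in controls and 2, 1 and 4 after KA, again at the floor. With the kit at 24 h it had 16, 15 and 6 reads in controls and 35, 14 and 16 after KA, a log2 difference in level of 0.33 (SE 0.54, edgeR adjusted p = 0.936). In kit libraries at 2 weeks it had 6, 28 and 8 reads in controls and 14, 43 and 16 after KA, a log2 difference of 0.50 (SE 0.53, edgeR adjusted p = 0.998). The groups overlapped each time. miR-132-5p with the kit differed by 0.27 (SE 0.53) at 24 h and 0.20 (SE 0.52) at 2 weeks, and neither passed the test. With UC it had 0, 1 and 3 reads in controls and 2, 3 and 3 after KA at 24 h, and 2, 5 and 1 against 5, 4 and 1 at 2 weeks.

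miR-212-5p, the arm of mir-212 with more reads, was at 36.8 to 73.0 CPM in UC controls and 38.8 to 84.6 CPM after KA at 24 h. At 2 weeks the UC controls had 120.5, 41.3 and 46.8 CPM and the KA libraries 124.8, 93.2 and 107 CPM. The highest control lay within the KA range, and the log2 difference was 0.72 (SE 0.51, edgeR adjusted p = 0.711). With the kit the difference was 0.34 at each time (SE 0.40 at 24 h and 0.41 at 2 weeks), and over both methods at 2 weeks it was 0.57 (SE 0.31, unadjusted p = 0.0728, edgeR adjusted p = 0.744). With the replicate number as a block this mean was 0.60 (unadjusted p = 0.0432, edgeR adjusted p = 0.664).

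miR-184-3p, which is induced in mouse hippocampus by mild preconditioning seizures, had the largest difference of the 9 in the mean over methods at 24 h, toward lower values. With the kit it was 103, 200 and 174 CPM in controls and 17.3, 69.3 and 69.5 CPM after KA, from 30, 31 and 45 reads against 6, 27 and 19 reads. These groups did not overlap. With UC it was 261, 316 and 145.6 CPM in controls and 160, 202 and 102 CPM after KA, and the groups overlapped. The log2 difference was -1.46 with the kit (SE 0.51, unadjusted p = 0.00932, edgeR adjusted p = 0.673) and -0.68 with UC (SE 0.40, unadjusted p = 0.0985, edgeR adjusted p = 1.00). Over both methods miR-184-3p was 2.11-fold lower (log2 -1.07, SE 0.33, unadjusted p = 0.00242, edgeR adjusted p = 0.192), 5th by p of 397 miRNAs, and it did not pass adjustment. In a fit that blocks on replicate number it did (-1.10, edgeR adjusted p = 0.0348), although same-numbered libraries did not vary together at 24 h. It kept this direction when any 1 of the 12 libraries of that time was left out, between -0.81 and -1.20, and under all scalings tried. In the kit comparison 9.04% of all miRNAs had groups that did not overlap, and 2 of the 9 members did, miR-184-3p and miR-324-5p.

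At 2 weeks the mean of miR-184-3p was not lower after KA with either method. With UC it was 185, 165 and 222 CPM in controls and 303, 366 and 226 CPM after KA, which did not overlap, a log2 difference of 0.72 (SE 0.38, unadjusted p = 0.0640, edgeR adjusted p = 0.577), or with the replicate block 0.72 (unadjusted p = 0.0481, edgeR adjusted p = 0.567). In kit libraries it was 67.7, 66.1 and 145.9 CPM in controls and 72.9, 47.3 and 167 CPM after KA, a difference of 0.00 (SE 0.56). The change of the KA effect from 24 h to 2 weeks was 1.40 with UC (SE 0.55, unadjusted p = 0.0149, edgeR adjusted p = 0.433) and 1.46 with the kit (SE 0.71, unadjusted p = 0.0528, edgeR adjusted p = 0.986). Neither passed adjustment, where that contrast called 0.476% of all miRNAs in UC and 0 of 520 in kit libraries (6.9% and 3.27% at the unadjusted threshold). Among KA libraries with UC, miR-184-3p was higher at 2 weeks than at 24 h by 1.02 (SE 0.39, unadjusted p = 0.0122, edgeR adjusted p = 0.279), with groups that did not overlap, as for 10.5% of all miRNAs.

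**Figure D2:**
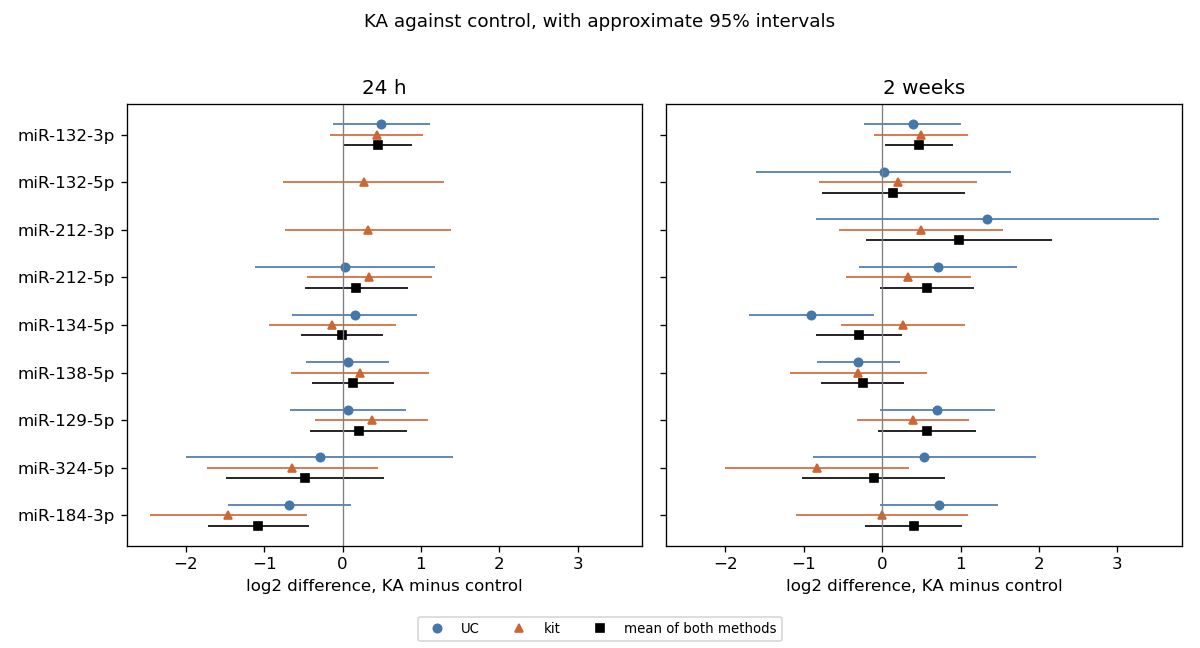
Log2 difference of KA minus control for each miRNA at 24 h and at 2 weeks, with UC (blue circles), with the kit (orange triangles) and as the mean over methods (black squares); bars are approximate 95% intervals. The mean for miR-184-3p at 24 h is at -1.07 and those for miR-132-3p at 0.45 and 0.47; the UC value and the mean are not drawn at 24 h for miR-132-5p and miR-212-3p, which had at most 3 reads in any UC library of that time.

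miR-134-5p, whose inhibition is known to reduce seizures in mice, passed the unadjusted threshold in 1 comparison. With UC at 2 weeks it was 201, 271 and 269 CPM in controls and 107, 193 and 83.1 CPM after KA, from 14 to 46 reads a library. The groups did not overlap, as for 10.2% of all miRNAs in that comparison and 2 of the 9 members, and the log2 difference was -0.90 (SE 0.41, unadjusted p = 0.0316, edgeR adjusted p = 0.577). The unadjusted p stayed under 0.05 in 8 of 9 other settings, but only in 2 of 6 fits that each left out 1 library. In kit libraries at 2 weeks it was 64.1, 101 and 127.7 CPM in controls and 89.1, 158 and 87.4 CPM after KA, a difference of 0.27 (SE 0.40). The KA effects of the methods differed by 1.21 at 2 weeks (SE 0.56, unadjusted p = 0.0366, edgeR adjusted p = 0.996), which did not pass adjustment (0 of 397 miRNAs did, and 3.53% passed the unadjusted threshold, as did 2.27% at 24 h). At 24 h the differences were 0.16 with UC (SE 0.41) and -0.13 with the kit (SE 0.41).

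For miR-129-5p, although it was abundant, single libraries moved the value at 2 weeks with UC far to either side. With UC at 2 weeks it was 4047, 5017 and 3547 CPM in controls and 1895, 4872 and 11517 CPM after KA, so the KA libraries held both the lowest and the highest level. The log2 difference was 0.70 (SE 0.38, unadjusted p = 0.0673, edgeR adjusted p = 0.577), without KA replicate 3 it was -0.40 (edgeR adjusted p = 0.985), and without KA replicate 1 it was 1.16 (edgeR adjusted p = 0.0518). KA replicate 3 is the library with the high choroid plexus marker sum, whose part in the miR-129-5p level was not tested. With the kit at 2 weeks miR-129-5p was 955, 1682 and 2339 CPM in controls and 1186, 2877 and 2285 CPM after KA, a difference of 0.40 (SE 0.37). At 24 h the difference was 0.07 (SE 0.38) with UC and 0.37 (SE 0.37) with the kit, with overlapping groups.

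miR-138-5p and miR-324-5p did not pass either threshold in any KA comparison. miR-138-5p, which was counted with at least 233 reads in every library, differed by 0.07 (SE 0.27) at 24 h and -0.31 (SE 0.27) at 2 weeks with UC. Its approximate 95% intervals there ran from -0.46 to 0.60 and from -0.84 to 0.22, the narrowest of the 9 members with UC. With the kit its levels ran from 1720 to 6758 CPM, and the differences were 0.22 (SE 0.45) and -0.30 (SE 0.45). miR-324-5p with the kit at 24 h was 51.7, 71.0 and 61.8 CPM in controls and 43.4, 43.7 and 18.3 CPM after KA. These groups did not overlap, from 11 to 16 reads against 5 to 17, and the log2 difference was -0.64 (SE 0.56, unadjusted p = 0.264, edgeR adjusted p = 0.881). At 2 weeks with the kit the difference was -0.83 (SE 0.60) with overlapping groups, and with UC, at 1 to 9 reads a library, it was -0.29 (SE 0.87) at 24 h and 0.54 (SE 0.73) at 2 weeks, where it was -0.18 without KA replicate 3.

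Most of the 9 had a log2 difference above 0 in each comparison, with values near 0 counted in. The log2 difference was above 0 for 7 of 9 members at 24 h with UC (56.7% of all tested), 7 of 9 at 2 weeks with UC (52.1%), 6 of 9 at 24 h with the kit (55.8%) and 7 of 9 at 2 weeks with the kit (48.7%). Their median log2 difference was 0.07, 0.54, 0.27 and 0.27 in that order, against 0.06, 0.02, 0.09 and -0.01 over all miRNAs tested. These counts were not tested. They include members near the floor with UC, and values near 0 that changed sign in other settings. Among these values were miR-184-3p at 2 weeks with the kit (0.0005), miR-132-5p at 2 weeks with UC (0.02) and miR-212-5p at 24 h with UC (0.04). In addition, 4 of the 9 members come from 1 pair of neighbouring hairpins, so the members are not 9 separate observations. Under reference scaling the direction turned for 5 members at 2 weeks with UC and for 6 at 24 h with the kit. In controls, 0 of 9 members passed either threshold between 24 h and 2 weeks with UC (4.05% of all at the unadjusted one) or with the kit (3.65%). After KA, 1 of 9 passed the unadjusted threshold between the times with UC (miR-184-3p, against 10.5% of all) and 0 of 9 with the kit (3.08%), and none passed adjustment (0.952% and 0.192% of all).

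Kit and UC libraries differed in most of these miRNAs, at a share near that of all miRNAs. In all, 6 of the 9 differed between kit and UC at an adjusted p under 0.05, 3 higher and 3 lower with the kit, against 65.5% of all 397 miRNAs tested (33.5% higher and 32% lower). At the unadjusted threshold 7 of 9 passed, against 68.3%. miR-212-5p was 2.21-fold higher with the kit (log2 1.14, SE 0.23, edgeR adjusted p = 4.18e-05). miR-212-3p (log2 2.37, SE 0.39, edgeR adjusted p = 2.76e-06) and miR-132-5p (log2 1.54, SE 0.33, edgeR adjusted p = 0.000146) were higher too. Their size is uncertain, since 11 and 9 of the 12 UC libraries held at most 3 reads of them, and no fold is given. These 3 are the rarer arms of the mir-132 and mir-212 hairpins and the more frequent arm of mir-212.

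Lower with the kit were the abundant miR-129-5p, 2.98-fold (log2 -1.58, SE 0.23, edgeR adjusted p = 3.99e-07), miR-184-3p, 2.43-fold (log2 -1.28, SE 0.23, edgeR adjusted p = 1.09e-05), and miR-134-5p, 1.98-fold (log2 -0.99, SE 0.20, edgeR adjusted p = 5.43e-05). miR-132-3p was the member nearest to 0, at 0.10 (SE 0.16), with an approximate 95% interval from -0.21 to 0.41. miR-138-5p (0.41, SE 0.19, edgeR adjusted p = 0.0570) and miR-324-5p (0.55, SE 0.34, edgeR adjusted p = 0.153) did not pass. Under reference scaling, which put the median of all miRNAs at -0.41, miR-132-3p and miR-138-5p were at -0.30 and -0.07. The libraries of the methods came from separate pools, so the method and the set of libraries cannot be told apart.

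**Figure D3:**
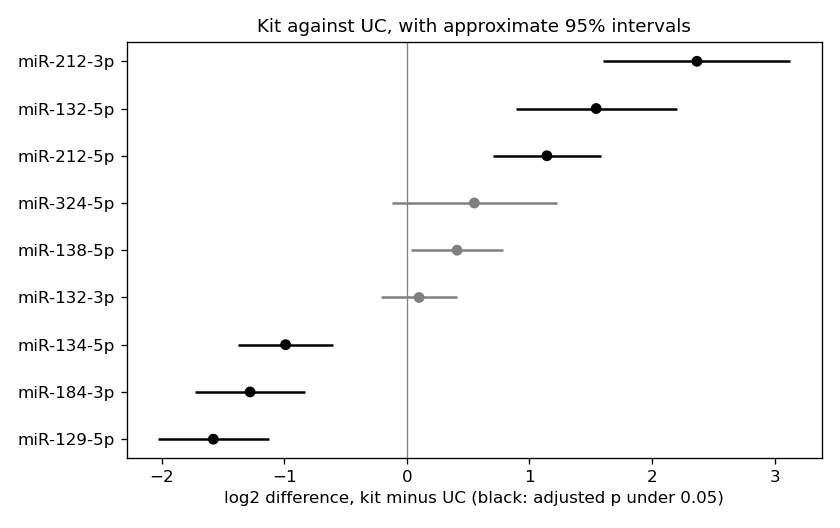
Log2 difference of kit minus UC for each of the 9 miRNAs over all 24 libraries, with approximate 95% intervals; black marks an adjusted p under 0.05 and grey the rest. The points of 3 miRNAs (miR-212-3p, miR-132-5p and miR-212-5p, 1.14 to 2.37) lie above 0, those of 3 (miR-134-5p, miR-184-3p and miR-129-5p, -0.99 to -1.58) below, and the interval of miR-132-3p spans 0.

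The 2 neighbouring hairpins kept opposite arms, and this did not depend on scaling, since both arms are read in the same library. For mir-132 the 3p arm had 56.1 times as many reads as the 5p arm over the 12 UC libraries (1683 against 30) and 21.6 times over the 12 kit libraries (from 4740 reads of the 3p arm), and it was the higher arm in all 24. For mir-212 the order was turned. Its 3p arm had 0.142 times the reads of the 5p arm with UC (17 against 120) and 0.35 times with the kit (217 against 620), and the 5p arm was the higher in all 24. Between the seed partners, miR-132-3p had 99 times the reads of miR-212-3p with UC and 21.8 times with the kit, so almost all reads with the shared seed were of miR-132-3p.

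None of these ratios differed between KA and control past the threshold. Per library, with 0.5 reads added to each arm, the log2 ratio of miR-132-3p over miR-132-5p at 24 h with the kit was 4.48 ± 0.54 in controls and 4.77 ± 0.79 after KA (SD, n = 3). For miR-212-3p over miR-212-5p it was -1.75 ± 0.48 and -1.68 ± 0.14 (SD, n = 3). Over both methods the 6 differences between KA and control (3 ratios at 2 times) ran from -0.37 to 0.45, with an adjusted p of at least 0.798 in an exact permutation test (two-sided, 400 labellings within method, adjusted over the 6). The lowest p that this test can give is 0.005. The arms of the other hairpins were unequal as well: miR-134-3p had 1 read with UC and 2 with the kit against 305 and 409 of miR-134-5p, and miR-324-3p was the higher arm with UC (47.1 against 24.7 CPM) and the lower with the kit (25.1 against 40.2 CPM).

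**Figure D4:**
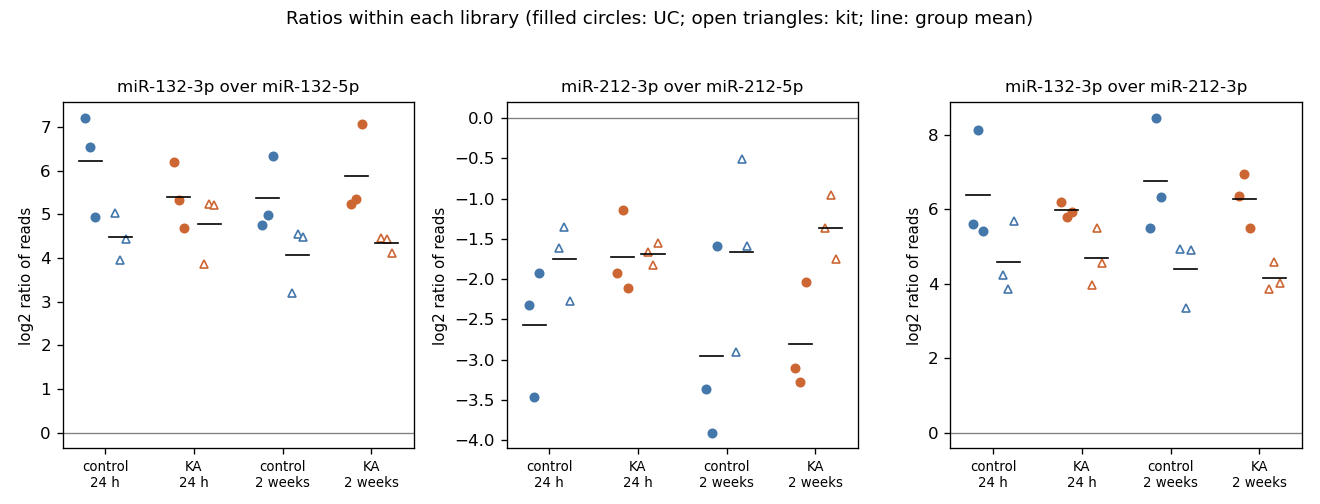
Log2 ratio of reads within each library for the 3p over the 5p arm of mir-132 and of mir-212, and for miR-132-3p over miR-212-3p, by treatment and time. Filled circles are UC libraries, open triangles are kit libraries and a line marks the mean of 3; all points for mir-132 lie above 0 (3.21 to 7.20) and all for mir-212 lie below 0 (-3.91 to -0.51).

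The files also list, read by read, sequences that depart from the reference: bases at the 3′ or 5′ end other than those of the reference, and single changes inside. The files do not say from where they count the positions of these changes, so positions are not used. This readout is a share of the reads of 1 miRNA in 1 library. miR-132-3p was altered in 12.2% of its 1683 UC reads and 16.7% of its 4740 kit reads, nearly all at the 3′ end (11.7% and 16.2% of reads). Its leading form was a single U listed at the 3′ end, in 8.32% of UC reads and 12.0% of kit reads. Uridine tailing of a 3′ end is a known modification of mature miRNAs. Without the position, an added U and a U in place of a reference base could not be told apart. The leading listed forms of miR-138-5p in kit libraries were strings of 8 to 9 bases, each in at most 1.21% of reads, so its altered reads are not of the same kind. Some of these strings were also listed for miR-132-5p and miR-324-5p. They are thus not particular to miR-138-5p, and their origin was not tested. miR-129-5p was altered in 4.45% and 4.64% of reads, miR-138-5p in 17.1% and 20.6%, miR-184-3p in 36.4% and 47.7%, and miR-134-5p in 69.2% and 59.9%. The high shares of miR-134-5p and miR-184-3p rest on 305 to 409 reads a method.

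Only miR-132-3p, miR-138-5p and miR-129-5p had at least 20 reads in every library, and only these 3 were compared by treatment. At 24 h the altered share of miR-132-3p was lower after KA than in controls. With UC it was 9.59, 13.7 and 15.1% in controls and 8.70, 10.1 and 8.89% after KA. With the kit it was 21.6, 23.1 and 18.8% in controls and 17.4, 13.3 and 13.3% after KA. The kit groups did not overlap and the UC groups overlapped by 1 library on each side. The exact binomial 95% intervals of single libraries were 5.35 to 14.8 points wide and cover counting error only.

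Averaged over methods the difference for miR-132-3p was -5.03 percentage points (p = 0.01 in the exact permutation test within method, 0.06 adjusted over the 6 tests of altered reads), so it did not pass adjustment. Counting 3′ changes alone it was -5.35 points (exact permutation p = 0.005, the smallest this test can give, adjusted p = 0.03), which passed. Leaving out UC control replicate 1 also brought it past the threshold (-5.83 points, exact permutation adjusted p = 0.03). At 2 weeks the difference was 0.57 points (exact permutation p = 0.83). For miR-129-5p at 24 h the difference was -2.15 points (exact permutation p = 0.05, adjusted p = 0.15). This is the mean of -4.26 points with the kit and -0.03 points with UC. With 3′ changes alone the miR-129-5p difference was -2.22 points (exact permutation adjusted p = 0.045). For miR-138-5p it was 4.66 points at 24 h (exact permutation adjusted p = 0.43) and 1.60 points at 2 weeks (adjusted p = 0.83), with libraries between 7.98 and 30.7%.

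**Figure D5:**
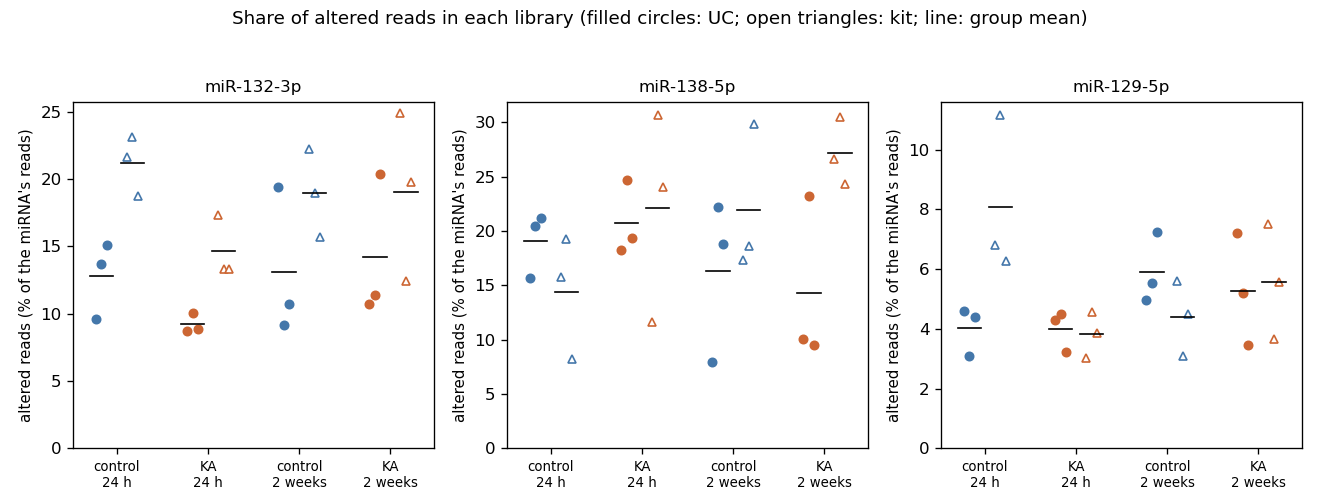
Share of altered reads, in percent of the reads of that miRNA in a library, for the 3 miRNAs with at least 20 reads in every library, by treatment and time. Filled circles are UC libraries, open triangles are kit libraries and a line marks the mean of 3; for miR-132-3p at 24 h the kit mean was 21.2% in controls and 14.7% after KA, and the UC mean 12.8% and 9.22%.

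Changes inside a member were rare. The most frequent was an A-to-G change, the kind that adenosine deamination leaves, in miR-132-3p, with 8 reads over all 24 libraries, out of 1683 UC and 4740 kit reads. No comparison by treatment was made on so few reads.

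Other miRNAs linked to neuronal activity or seizures, from a list of 25, give the scale of change seen in the same libraries. Of the 22 tested with UC, 1 passed adjustment at 24 h and 2 at 2 weeks, all higher after KA, against 0.476% and 0.952% of all miRNAs. These were miR-21a-5p and miR-146a-5p, which the study had already reported in these libraries. The list was chosen with earlier results of these data known, so the counts are a description and no test of the list. Of the 23 tested with the kit none did at either time, as for all 520 miRNAs, and 3 of the 23 passed the unadjusted threshold at each time, against 4.62% and 2.69% of all. miR-21a-5p, a miRNA of reactive glia, rose by 1.496 at 24 h (SE 0.28, edgeR adjusted p = 0.000413) and by 1.08 at 2 weeks with UC (SE 0.27, edgeR adjusted p = 0.0326). miR-146a-5p, a feedback inhibitor of inflammatory signalling, rose by 1.22 at 2 weeks with UC (SE 0.27, edgeR adjusted p = 0.0149). With the kit both had higher means at 2 weeks, by 1.46 and 1.93, without passing adjustment, and the miR-146a-5p groups overlapped. At 24 h with the kit miR-21a-5p was higher by 0.89 (SE 0.31, unadjusted p = 0.00865, edgeR adjusted p = 0.673). In the mean over methods miR-21a-5p passed at 24 h (1.18, edgeR adjusted p = 0.000268) and 2 weeks (1.30, edgeR adjusted p = 9.92e-05). There miR-146a-5p passed at 2 weeks (1.58, edgeR adjusted p = 0.000656). The summed level of the 5 microglia and leukocyte markers, miR-146a-5p among them, was 4349 to 5398 CPM in UC KA libraries at 2 weeks and 2069 to 2762 CPM in their controls. Alone, miR-146a-5p was at 4266 to 5311 CPM and 1998 to 2680 CPM in these libraries. Nearly all of the sum is therefore that 1 miRNA, and it is not a separate observation on the other markers. The others past the unadjusted threshold in a KA comparison were miR-10a-5p at 2 weeks (0.90 with UC and 0.99 with the kit), miR-335-5p (0.90) and miR-22-3p (0.66) at 24 h with the kit, and miR-203-3p (-0.79) at 24 h in the mean over methods.

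The pattern of miR-132-3p across libraries was set beside that of the 145 miRNAs with at least 10 reads in every library. The closest by the lower of the 2 Spearman correlations, over the 12 libraries of each method, were miR-29a-3p (0.64 with UC and 0.59 with the kit), miR-107-3p (0.58 and 0.52), miR-9-3p (0.64 and 0.38), miR-410-3p (0.78 and 0.36) and miR-9-5p (0.33 and 0.32). The 3 members deep enough for the same measure were further off: miR-129-5p had 0.02 and 0.34, miR-134-5p had -0.24 and 0.31, and miR-138-5p had -0.10 and -0.37. Points of 1 method share library depth and scaling, and these values are descriptions only.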

How the data were processed

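Small RNA was sequenced in 24 EEF libraries (TruSeq small RNA, MiSeq), after RNase A treatment. The authors trimmed and mapped the reads with Chimira to hairpins of miRBase v21 and deposited whole-number counts per mature miRNA and, in a second table, counts per altered form. Listings that occurred doubled in the second table were left out of its totals and of the changes inside a miRNA. The counts of changes at the ends were not filtered in this way. The totals then equalled the plain counts in all 213 pairs of member and library compared. Counts were tested with edgeR 4.0.16 (R 4.3.3, TMM scaling, quasi-likelihood test, 1 coefficient per group, Benjamini-Hochberg over all miRNAs) after a filter of over 1 CPM in at least 6 libraries of a method, on the 12 libraries of a method or on all 24. The CPM printed are deposited counts scaled to 1000000 miRNA reads of the library. Standard errors were taken from the log2 difference and the F statistic, and the approximate 95% intervals from them. Arm ratios (0.5 reads added) and altered shares were compared by exact permutation within method (scipy 1.17.1). Exact binomial (Clopper-Pearson) intervals and the floor of 3 reads cover counting error only.

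Groups were taken from the labels. The study calls the replicates biological replicates of pooled samples. It does not state how many mice a pool held, from which side the hippocampi came, or whether pools shared mice. Deviations of same-numbered KA and control libraries correlated over 0.1 in all 6 pairs at 2 weeks (0.11 to 0.31) and in 1 of 6 at 24 h (-0.25 to 0.11), so the numbers met the criterion for pairing at 2 weeks only. The labels give no shared litter or day, and the main fits have no block. The members and the lists (other linked miRNAs, cell type markers) were chosen with earlier results of these data known. The miRNAs named are the members and the other arms of their hairpins, those of the list of 25 with an unadjusted p under 0.05 in a KA comparison, and the 5 most like miR-132-3p. Alternatives were RLE, library size and reference scaling, other filters, DESeq2 1.42.0, limma-voom (limma 3.58.1), a replicate block, fits of 6 libraries, single methods and each library left out. The tests across miRNAs were tested on simulated counts in which 200 miRNAs were changed in the KA group of 24 h. Over all simulated miRNAs, 27.6% (UC) and 26.6% (kit) of the 2-fold changes were called at an adjusted p under 0.05. Sequences are from RefSeq (GRCm38.p6) and gene overlaps from GENCODE vM21.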

Additional observations from a re-analysis of the deposited data

How the results depend on the processing

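Of the values recomputed, 1223 values of single miRNAs kept their direction and side of the threshold, and 98 did not. Of the answers to comparisons, 386 were rated unchanged and 12 were not. The cause of the changes was not tested. A count of members past the threshold could shift slightly and still be rated unchanged, as from 6 to 7 between kit and UC by library size. Permutation tests on the libraries of a single method cannot give a p under 0.1. Their side of the threshold was therefore fixed beforehand. Reference scaling (miR-92b-3p and miR-25-3p) turned the log2 difference at 2 weeks with UC to -0.11 (miR-132-3p), -0.28 (miR-132-5p), -0.021 (miR-212-5p), -0.19 (miR-129-5p) and -0.20 (miR-324-5p). At 24 h with the kit it gave -0.12 (miR-132-3p), -0.30 (miR-132-5p), -0.15 (miR-212-3p), -0.16 (miR-212-5p), -0.14 (miR-138-5p) and -0.19 (miR-129-5p). In the mean over methods it gave -0.073 (miR-212-5p), -0.026 (miR-138-5p) and -0.021 (miR-129-5p) at 24 h and -0.12 (miR-132-5p) at 2 weeks, and between kit and UC -0.30 (miR-132-3p) and -0.074 (miR-138-5p). Values near 0 also changed sign. For miR-212-5p at 24 h with UC it was -0.0078 without a filter and -0.0043 in a fit of 6 libraries. For miR-129-5p at 24 h with UC it was -0.025 with limma-voom and -0.051 with a replicate block. For miR-132-5p at 2 weeks with UC it was -0.0022 with RLE, -0.058 without a filter and -0.050 with limma-voom. For miR-184-3p at 2 weeks with the kit it was -0.10 with limma-voom, -0.039 with a replicate block and -0.0023 in a fit of 6 libraries. For miR-134-5p at 24 h in the mean it was 0.036 without a filter and 0.025 with limma-voom.

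The replicate block, on numbers that met the pairing criterion at 2 weeks only, brought 1 member past adjustment in the mean at 24 h, miR-184-3p (-1.10, edgeR adjusted p = 0.0348), and miR-138-5p between kit and UC (0.31, edgeR adjusted p = 0.0423). It changed no other adjusted call of a member. The members past the unadjusted threshold went from 1 to 2 with the block at 2 weeks with UC, in the mean at 2 weeks and between the times after KA with UC, and from 0 to 1 for the change of the kit KA effect over time. Over all settings they numbered 0 to 2 at 2 weeks with UC and in the mean at 2 weeks, and 1 to 2 in the mean at 24 h. miR-138-5p also passed between kit and UC by library size (0.45), without a filter (0.47) and without 1 library in 4 cases. With at least 10 reads in 6 libraries, which removes the rarer members, 3 members passed between kit and UC. With kit libraries alone the 24 h ratio differences were 0.29 (miR-132-3p over miR-132-5p) and 0.083 (miR-132-3p over miR-212-3p). With UC libraries alone the altered shares at 2 weeks differed by -2.07 (miR-138-5p) and -0.63 points (miR-129-5p). Counting 3′ changes alone, 2 miRNAs passed at 24 h.

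Leaving out each library in turn, the log2 differences that changed sign or call ranged as follows. At 24 h with UC they ran from -0.32 to 0.24 (miR-212-5p), -0.092 to 0.48 (miR-134-5p), -0.054 to 0.12 (miR-138-5p) and -0.26 to 0.37 (miR-129-5p). At 2 weeks with UC they ran from -0.24 to 0.65 (miR-132-5p), -0.40 to 1.16 (miR-129-5p) and -0.18 to 1.01 (miR-324-5p). At 24 h with the kit they ran from -0.35 to 0.64 (miR-132-5p), -0.14 to 0.81 (miR-212-3p), -0.085 to 0.63 (miR-212-5p), -0.26 to 0.048 (miR-134-5p) and -0.071 to 0.78 (miR-138-5p). At 2 weeks with the kit they ran from -0.10 to 0.66 (miR-132-5p), -0.13 to 0.47 (miR-134-5p), -0.74 to 0.51 (miR-138-5p) and -0.54 to 0.40 (miR-184-3p). In the means they ran from -0.077 to 0.23 (miR-134-5p, 24 h), and at 2 weeks from -0.06 to 0.46 (miR-132-5p), -0.53 to 0.089 (miR-138-5p) and -0.48 to 0.11 (miR-324-5p). Between kit and UC they ran from -0.022 to 0.19 (miR-132-3p) and 0.18 to 0.46 (miR-138-5p). The ratio differences ran from -0.083 to 0.57 (miR-212-3p over miR-212-5p, 2 weeks), -0.41 to 0.27 and -0.69 to 0.052 (miR-132-3p over miR-212-3p, 24 h and 2 weeks). Altered shares ran from -5.83 to -4.45 points (miR-132-3p, 24 h), and at 2 weeks from -0.99 to 2.22 (miR-132-3p), -0.65 to 3.57 (miR-138-5p) and -0.21 to 0.76 (miR-129-5p), with 0 to 1 miRNAs past adjustment at 24 h. Read depth limits miR-132-5p, miR-212-3p and miR-324-5p most, above all with UC.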

Other observations

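The second arms of the remaining hairpins were mostly rare. miR-138-1-3p averaged 30.2 CPM in UC and 64.5 CPM in kit libraries, and miR-138-2-3p 1.11 and 12.1 CPM. miR-129-2-3p averaged 2.57 and 7.02 CPM, and miR-129-1-3p had 1 read with UC and 3 with the kit.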
